A study of Homo sapiens with 30 samples.

Results

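The regions described here gained open chromatin at 10 nM R1881 in both LNCaP and VCaP, both established lines from human prostate cancer whose growth responds to androgen. Each region is a span of the peak list of LNCaP at 10 nM, replicate 3. It overlaps a peak among the strongest 100000 in each of the other 5 libraries at 10 nM and overlaps no peak in any of the 6 vehicle libraries. There were 1798 such members among 89687 spans of that list, or 2% of them. They made up 4.29% of the 41948 spans that were open in all 6 libraries at 10 nM, whatever their state in vehicle.

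Chromatin was profiled by Omni-ATAC-seq, in which the Tn5 transposase places sequencing adapters into accessible DNA. All cells first spent 48 hours in 8% serum that charcoal had depleted of steroids. R1881, a stable synthetic androgen, or its vehicle was then given for 24 hours. LNCaP cells, seeded at 130000 per well, received vehicle, 0.03, 0.06, 0.1 or 10 nM. VCaP cells, seeded at 300000 per well, received vehicle, 0.01, 0.03, 0.06 or 10 nM. Each of the 10 groups held 3 libraries, numbered 3, 4 and 5 in LNCaP and 1, 2 and 4 in VCaP. The labels do not say whether replicates came from separate cultures, so p-values measure the spread between these libraries, which may be technical. The doses shared by both lines below 10 nM were 0.03 and 0.06 nM.

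Steroid hormones act through nuclear receptors that bind DNA as dimers. The response element for androgen is an inverted repeat of a short hexamer, close to AGAACA, with 3 bases between the repeats. Most androgen-driven binding in prostate cells lies in enhancers away from gene starts, often beside sites of pioneer factors such as FOXA1, and it is accompanied by opening of the chromatin there. VCaP carries the fusion of TMPRSS2 with ERG.

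Few members lay at gene starts, and those that did are the ones whose DNA can be shown. The promoter sequences used here come from RefSeq on GRCh38.p14 and run from 250 bases before to 50 bases after a start, for 34961 genes. A member overlapped such a window at 17 genes, of which 6 were protein-coding: SCRG1, IPCEF1, SUN3, OR6Q1, LCP1 and KRTAP13-2. The windows were searched on both strands for the inverted repeat of GNACA with 3 bases between, the core letters of the response element, for the hexamer AGAACA, which can overlap it, and for the forkhead letters TGTTTAC and TGTTTGC. Shown first are the 3 windows in which such letters lay within 50 bases of the peak summit, followed by LCP1, the only one of the 17 with the hexamer at 2 places. Each is printed 5′ to 3′ on the gene's strand, with the matched letters in capitals.
SCRG1: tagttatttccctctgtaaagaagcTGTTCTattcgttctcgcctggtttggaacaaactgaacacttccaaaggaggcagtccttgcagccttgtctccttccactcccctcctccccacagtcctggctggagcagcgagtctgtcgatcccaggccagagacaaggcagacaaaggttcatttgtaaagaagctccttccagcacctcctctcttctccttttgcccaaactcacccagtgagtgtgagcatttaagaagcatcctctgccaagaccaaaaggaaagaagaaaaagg
OR6Q1: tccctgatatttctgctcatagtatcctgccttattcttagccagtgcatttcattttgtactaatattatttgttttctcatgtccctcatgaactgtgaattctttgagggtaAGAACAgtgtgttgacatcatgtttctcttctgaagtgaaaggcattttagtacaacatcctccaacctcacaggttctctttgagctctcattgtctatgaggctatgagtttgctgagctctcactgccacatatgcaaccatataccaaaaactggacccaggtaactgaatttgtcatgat
LOC105372465: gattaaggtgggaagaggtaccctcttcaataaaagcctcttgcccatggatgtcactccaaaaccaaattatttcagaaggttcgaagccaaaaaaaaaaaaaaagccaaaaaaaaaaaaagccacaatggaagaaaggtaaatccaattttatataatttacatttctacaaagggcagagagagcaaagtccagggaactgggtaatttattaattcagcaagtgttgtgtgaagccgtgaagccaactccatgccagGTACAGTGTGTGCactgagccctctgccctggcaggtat
LCP1: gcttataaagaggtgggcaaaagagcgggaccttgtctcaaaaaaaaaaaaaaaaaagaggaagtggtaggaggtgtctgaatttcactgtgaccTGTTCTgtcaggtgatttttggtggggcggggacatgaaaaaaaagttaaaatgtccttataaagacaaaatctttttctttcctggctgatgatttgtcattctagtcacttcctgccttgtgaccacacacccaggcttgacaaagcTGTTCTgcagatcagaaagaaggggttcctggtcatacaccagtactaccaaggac

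The SCRG1 window, chr4:173399067-173399366 on the minus strand, belongs to a gene named for its response in scrapie. It held TGTTCT, the hexamer read on the other strand, at a centre 48 bases from the summit. The OR6Q1 window of an olfactory receptor gene, chr11:58030703-58031002 on the plus strand, held AGAACA 28 bases from the summit. The window of the uncharacterised RNA gene LOC105372465, chr19:55753362-55753661 on the plus strand, held the only inverted repeat found, 30 bases from the summit. The LCP1 window, chr13:46182128-46182427 on the minus strand, precedes the gene of L-plastin, an actin-bundling protein. Its summit lay at −578 bases relative to the start, outside the window, and the hexamers lay 426 and 574 bases from it.

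The inverted repeat was present in 1 of the 17 windows (5.9%), against 0.2% of 14641 promoters under always-open spans and 0.4% of all 34961 promoters. AGAACA was present in 6 of 17 (35.3%), against 7.5% under always-open spans and 14.8% of all promoters. Other letters also exceeded both references: TGTTTGC (11.8%, against 2.6% and 3.9%), AGATAA (17.6%, 4.1% and 10.3%), TGANTCA (11.8%, 3.9% and 7.7%) and CAATAAA (5.9%, 2.1% and 4%). TTGGCA and TGATAA lay between the references. TGTTTAC and CCGGAAG were in 0 of 17, as were the inverted repeat with 2 or 4 bases between and the everted and direct repeats with 3. The GC box GGGCGG was present in 1 of 17 (5.9%), against 73.2% and 45% in the same order. The windows also differed in base composition, with a median GC content of 44% under members, 66.3% under always-open spans and 58.7% over all promoters, so these shares were not compared at matched composition. A match says only that the letters are there.

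Facts of the libraries bear on all that follows. A LNCaP list had between 135254 and 223998 entries and a VCaP list between 105034 and 170787; read depth is unknown. The background pileup recovered from the lists, a measure of relative depth, was 3.06 to 5.26 in LNCaP and 1.09 to 2.74 in VCaP. In VCaP it was 2.07 to 2.49 at 10 nM and 1.09 to 2.11 in vehicle, whose lists had to lack a member, and the part of depth in the choice of members was not tested. Peak strength moved with dose as well: the −log10 p of entry 100000 was 10.1 to 17.4 in LNCaP at 10 nM and 3.80 to 5.25 in vehicle. KRT8, KRT18, HOXB13, FOXA1 and TMPRSS2, markers of luminal prostate cells, had a peak within 1 kb of an end of the gene in all 30 libraries. KLK3, which encodes prostate-specific antigen, had one in 14 of 15 LNCaP libraries and 1 of 15 VCaP libraries. Such peaks are not specific to a cell type, since COL1A1, CHGA, SYP and ENO2 also had one in all 30.

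The values that chose the members are given as a description. A peak's percentile rank by −log10 p among the strongest 100000 of its own library is the measure used throughout: 100 is the strongest, and 0 means not listed. The mean rank of a member over the 6 libraries at 10 nM ran from 9.4 to 95.3, with a median of 52.4. The median was 51.7 in LNCaP and 54.8 in VCaP. Spans open in all 6 libraries at 10 nM and present in 1 vehicle list numbered 1126, with a median rank of 55, and those in all 6 vehicle lists numbered 28760, with a median of 78.5. Just outside the rule on the other side were 434 spans with no vehicle peak that missed the strongest 100000 in a single library at 10 nM, 159 of them in VCaP replicate 2. Just inside it were 165 members within 5 points of the end of a list.

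At the doses that the rule did not use, a larger share of members was listed at each higher dose. In LNCaP, 17% ± 4.61 of the members had a listed peak at 0.03 nM, 41.3% ± 7.85 at 0.06 nM and 60.6% ± 8.42 at 0.1 nM (SD, n = 3). In VCaP, the share was 12.6% ± 5.91 at 0.01 nM, 26.5% ± 14.1 at 0.03 nM and 57% ± 17 at 0.06 nM. Of all spans of the list, 74.1%, 81% and 84% were listed at the same doses in LNCaP, and 53.4%, 52.9% and 58.6% in VCaP. The 27452 always-open spans, listed in all libraries at 10 nM and in vehicle, were listed on average at 97.1% to 99.8% at each of these doses. Gains found in LNCaP alone (2766 spans) were listed in LNCaP at 15%, 36.3% and 50.6% over its low doses. Gains found in VCaP alone (645 spans) were listed in VCaP at 10.3%, 15.7% and 39.8%.

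The library values show where the spread lies. In LNCaP, replicates 3, 4 and 5 listed 395, 288 and 232 members at 0.03 nM, 843, 803 and 581 at 0.06 nM, and 1183, 1171 and 915 at 0.1 nM. No 2 of these doses overlap. The order of the LNCaP replicates depended on list length. In lists not shortened, replicates 3, 4 and 5 listed 1013, 1036 and 1226 members at 0.06 nM. They listed 1372, 1411 and 1524 at 0.1 nM, so that replicate 5 was the highest at both doses. In VCaP, replicates 1, 2 and 4 listed 325, 114 and 242 members at 0.01 nM, 715, 209 and 506 at 0.03 nM, and 1204, 671 and 1199 at 0.06 nM. VCaP replicate 2 was the lowest at each low dose, and because of it the VCaP doses of 0.01 and 0.03 nM and those of 0.03 and 0.06 nM overlap. Within each replicate number of either line, the count was higher at each higher dose. Without replicate 2 the VCaP shares were 15.8%, 34% and 66.8%. The fold enrichment of a summit over its local background is a value of the authors. It was taken from the lists as deposited, not shortened, as the highest entry overlapping a member. At low doses this covers more members than the counts from the shortened lists, such as 464 and not 232 in LNCaP replicate 5 at 0.03 nM. Its median in the 3 LNCaP libraries was 2.62 to 3.91 at 0.03 nM, 4.16 to 5.44 at 0.06 nM, 5.17 to 6.39 at 0.1 nM and 9.34 to 10.1 at 10 nM. The VCaP medians overlapped between neighbouring doses, with 2.60 to 3.51 at 0.01 nM, 3.002 to 4.24 at 0.03 nM, 3.60 to 5.57 at 0.06 nM and 4.47 to 7.16 at 10 nM.

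**Figure D1:**
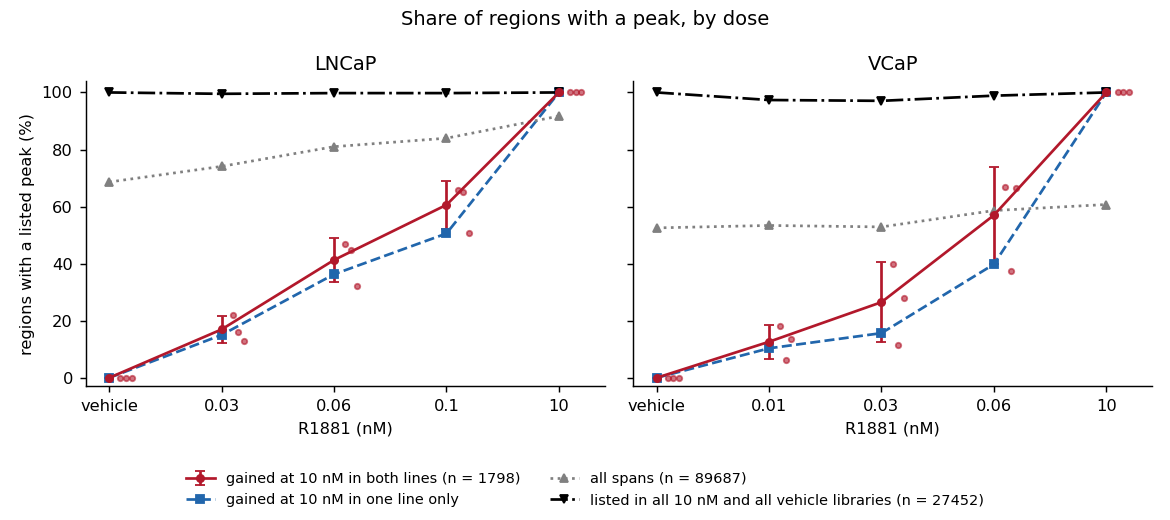
Percent of regions with a listed peak (y axis) at each R1881 dose in nM (x axis), LNCaP left and VCaP right. The red line with bars is the mean ± SD of 3 libraries for the 1798 members, red points are libraries, and other lines are means for other sets; the members stand at 60.6% at 0.1 nM in LNCaP and 57% at 0.06 nM in VCaP, while always-open spans are at 97.1% or more.

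Each member was given the lowest dose at which at least 2 of 3 libraries listed it. In LNCaP this was 0.03 nM for 278 members, 0.06 nM for 479, 0.1 nM for 357 and only 10 nM for 684. In VCaP it was 0.01 nM for 163, 0.03 nM for 304, 0.06 nM for 631 and only 10 nM for 700. A member given only 10 nM may still be listed by a single library at a lower dose. Once listed, most members stayed listed: of the 278 that began at 0.03 nM in LNCaP, 271 were also listed at 0.06 and 0.1 nM, and of the 163 that began at 0.01 nM in VCaP, 130 were also listed at 0.03 and 0.06 nM. Members that began early ranked high at 10 nM, a level the rule used: the median LNCaP rank at 10 nM was 73.5 for those from 0.03 nM, 64.3 from 0.06 nM, 53.5 from 0.1 nM and 36.3 for those at 10 nM only. The VCaP medians at 10 nM were 69.9, 64.3, 59.6 and 43.2 in the same order of doses. A strong peak clears the end of a list more easily, so the lowest dose listed also carries peak strength.

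The lines often differed in which members opened at low dose. Any low dose listed 777 members in both lines, 337 in LNCaP alone and 321 in VCaP alone, and 363 in neither. The 18 low-dose libraries all listed 5 members, and none of them listed 132; when the lists were not shortened, 38 members were in no low-dose list. Across the 1798 members, Spearman's rho of the mean low-dose rank between LNCaP and VCaP was 0.337, over these unlike doses and as a description. The members share the libraries, and strong peaks rank high in both.

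**Figure D2:**
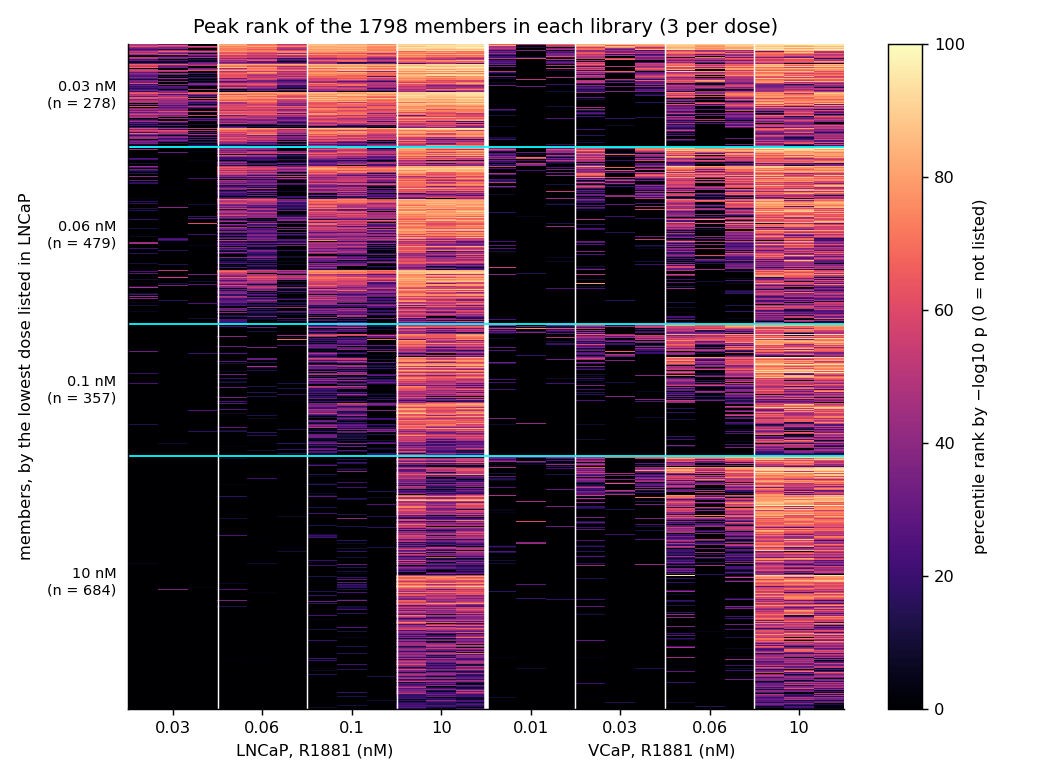
Percentile rank by −log10 p of each member (rows) in each library (columns, 3 per dose, LNCaP left and VCaP right). Rows are grouped by the lowest dose at which LNCaP listed the member (278, 479, 357 and 684 members) and, within a group, by the same dose in VCaP; black is not listed, and the lower 684 rows are almost black in LNCaP below 10 nM while many of them are coloured in VCaP at 0.06 nM.

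To ask whether members still climbed within the low range, libraries at 0.1 nM were compared with those at 0.03 nM in LNCaP, in a fit on the 9 low-dose libraries, since the rule had used vehicle and 10 nM. The test was limma with Benjamini-Hochberg adjustment over the 100347 regions that at least 3 of these libraries listed. It included 986 of the 1798 members, and 236 of the 1798 (13.1%) rose while 0 fell. Over all regions tested, 1.65% rose and 0.252% fell. When vehicle and 10 nM libraries were added to the fit, which admits all 1798 members, the median difference was 13.55 points for members and 0 for all regions. Every member passes that filter through the 10 nM libraries that the rule used, and most regions were not so chosen. These medians are therefore a description and not a like comparison. Of the 236, 99 were in no library at 0.03 nM and so passed the filter only through the higher low doses. All 236 were in every library at 0.1 nM. All 3 libraries at 0.1 nM lay above all 3 at 0.03 nM for 687 of the 1798 members (38.2%) and below for 0, against 11.6% above and 7.79% below among all regions tested.

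The number of calls in LNCaP varied with the libraries used. Same-numbered libraries moved together, and with the replicate number as a block 460 members rose. Over all regions in that fit, 4949 of 100347 rose and 1649 fell, against 1655 and 253 in the main fit. Leaving out replicate 3, 4 or 5 at 0.1 nM gave 26, 18 and 99 member calls, beside 133, 108 and 442 rises over all regions. Leaving out replicate 4 or 5 at 0.03 nM gave 117 and 153 member calls, beside 777 and 1181 rises over all regions. The −log10 p of entry 100000 was 6.87 to 13.4 at 0.1 nM and 4.22 to 5.30 at 0.03 nM, and the part of peak strength in the rise was not tested.

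The 5 members with the largest separated rise in LNCaP lay at FKBP5, CDCA2, RGS6, GPALPP1 and CHD8, and all 5 were in no library at 0.03 nM. The FKBP5 member is described with the androgen-induced genes. The CDCA2 member, on chromosome 8 inside the gene of a mitotic chromatin protein, ranked 83, 74.6 and 74.7 at 0.1 nM against 0 in all 3 libraries at 0.03 nM (difference 77.4 ± 7.87 points, SE, adjusted p = 0.00132). The RGS6 member, chr14:72061776-72062321, lies inside a regulator of G protein signalling and ranked 72, 69.9 and 70.2 against 0 in each (70.7 ± 8.14, adjusted p = 0.00255). The GPALPP1 and CHD8 members rose by 69.4 ± 9.5 and 69.35 ± 10.2 points, with adjusted p of 0.00518 and 0.00755; CHD8 is a chromatin remodeller. The CHD8 call was lost without replicate 3 or 4 at 0.1 nM (adjusted p = 0.0602 and 0.0697), and that of GPALPP1 without replicate 4 (adjusted p = 0.0555). With the top 50000 entries GPALPP1 and CHD8 were not called, at 38.73 and 38.71 points (adjusted p = 0.0547 and 0.134). When an overlap of at least 50% was asked for, the calls at GPALPP1 (22.86 points, adjusted p = 0.661) and RGS6 (46.7 points, adjusted p = 0.294) were lost.

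In VCaP, 0.06 nM was set against 0.01 nM in the same way, over 89300 regions that included 902 members. No member passed the adjusted test: 0 of 1798 rose and 0 fell, where over all regions 0.0056% rose and 0% fell by limma. At an unadjusted p under 0.05, in either direction, the test had 524 of the 1798 members and 8.03% of all regions. With vehicle and 10 nM libraries in the fit, the median difference was 16 points over all 1798 members and 0 over all regions. As in LNCaP, the 10 nM libraries that chose the members admit them to that fit, so these medians are a description only. All 3 libraries at 0.06 nM lay above all 3 at 0.01 nM for 495 of the 1798 members (27.5%) and below for 0, against 7.59% above and 6.01% below over all regions tested. Without replicate 2 at 0.06 nM, 918 members were separated. Fewer libraries make separation easier for any region, and the share over all regions was not computed for this setting. The adjusted member calls numbered 19 with no VCaP library numbered 2, 17 with all deposited entries and 11 with a peak in at least 1 library. Over all regions, 154 of 82495, 361 of 117730 and 121 of 192228 tested rose in these settings. With single libraries left out the member calls numbered 3 without replicate 1 at 0.01 nM, 2 without replicate 4 at 0.01 nM, and 0 otherwise. In the former settings 56 and 37 of all regions rose. The background pileup was 2.05 to 2.69 at 0.06 nM and 1.785 to 2.36 at 0.01 nM, and its part was not tested.

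At the matched dose of 0.06 nM the members leaned toward VCaP. By the majority of libraries, 549 were listed in both lines, 202 in LNCaP alone, 528 in VCaP alone and 519 in neither. A fit on all 18 low-dose libraries tested 130266 regions with 1394 members: 135 of the 1798 (7.51%) were higher in LNCaP and 407 (22.6%) were lower in LNCaP. Over all regions the balance ran the other way, with 20.4% higher in LNCaP and 13.5% lower. Of the 407, 245 were in no LNCaP library at 0.06 nM and 200 were in at least 2 LNCaP libraries at 0.1 nM. Of the 135, 32 were in no VCaP library at 0.06 nM. With lists not shortened the split was 185 higher and 314 lower, beside 37257 and 16642 of 186215 regions tested. With only peaks at a −log10 q of at least 5 it was 164 and 236, beside 25631 and 10750 of 110452. LNCaP and VCaP libraries differ in depth throughout, so line and depth cannot be told apart in these values. At 0.06 nM the −log10 p of entry 100000 was 5.89 to 12.2 in LNCaP and 3.54 to 5.06 in VCaP. A LNCaP rank of 0 can therefore hide a peak as strong as a listed VCaP peak. In lists not shortened, 60.7% ± 6.5 of the members were listed in LNCaP and 66.2% ± 15.4 in VCaP (SD). The part of this cutoff in the line difference was not tested.

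The largest separated differences in favour of LNCaP lay at CARMIL1, RASAL2, BRAF, MSN and ULK2. CARMIL1 encodes a regulator of actin capping, RASAL2 an activator of Ras GTPase, BRAF a kinase of the MAP kinase cascade, MSN the membrane linker moesin and ULK2 a kinase of autophagy. The CARMIL1 member, chr6:25283959-25284488, ranked 80.6, 79.4 and 74.8 in LNCaP at 0.06 nM against 10.4, 0 and 0 in VCaP (difference 74.8 ± 5.69 points, adjusted p = 4.88e-08). It ranked 94.8, 95.4 and 96 in LNCaP and 63.9, 79 and 55.1 in VCaP at 10 nM. The BRAF member, chr7:140931720-140932574, lies 7.15 kb from the gene and ranked 68, 71.6 and 58.2 in LNCaP at 0.06 nM against 0 in all 3 VCaP libraries. No VCaP library listed it at any low dose, so it passed the filter only through LNCaP. The differences at RASAL2, MSN and ULK2 were 67.1 ± 8.1, 61.8 ± 7.45 and 60.2 ± 7.68 points. These LNCaP peaks were already listed in all 3 libraries at 0.03 nM for all 5 regions.

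In favour of VCaP the largest separated differences lay at ALDH2, LLPH, FHOD3, SV2B and DISC1. ALDH2 encodes the mitochondrial aldehyde dehydrogenase, FHOD3 a formin of actin assembly, SV2B a synaptic vesicle glycoprotein and DISC1 a scaffold protein. The ALDH2 member, chr12:111817033-111817425, was in no LNCaP library at 0.06 nM against ranks of 91.3, 81.7 and 87.4 in VCaP (difference −86.8 ± 9.45 points, adjusted p = 2.66e-06). In VCaP it was listed from 0.01 nM, at 74.3, 27.9 and 74.9, while in LNCaP it reached 43.7, 35.6 and 48.5 at 10 nM. The LLPH member, chr12:66056066-66056286 and 60.4 kb from the gene, ranked 0, 19.5 and 0 in LNCaP and 93.7, 94 and 92 in VCaP (−86.8 ± 11.3, adjusted p = 1.84e-05). FHOD3, SV2B and DISC1 differed by −82 ± 9.03, −80.8 ± 14.4 and −80.05 ± 13.5 points, and at all 3 no LNCaP library listed the member at 0.06 nM. The FHOD3 and DISC1 members were in no LNCaP library at any low dose, so both passed the filter only through VCaP.

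**Figure D3:**
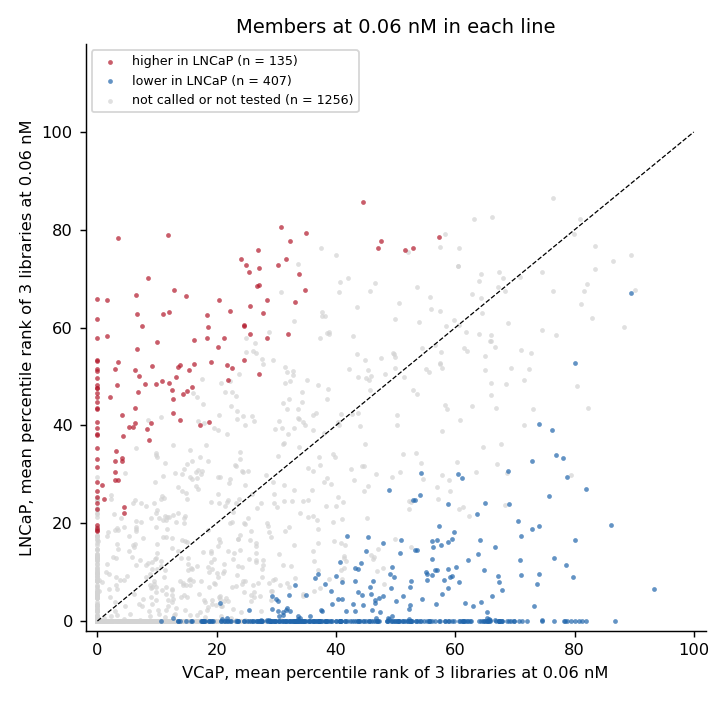
Mean percentile rank of each member over 3 libraries at 0.06 nM, LNCaP on the y axis and VCaP on the x axis; the dashed line marks equal rank. Red points are the 135 members called higher in LNCaP and blue points the 407 called lower, many of which lie on the line of 0 for LNCaP.

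At 0.03 nM fewer members were open. The majority of libraries listed 128 in both lines, 150 in LNCaP alone, 308 in VCaP alone and 1212 in neither. In the same fit, 56 of the 1798 members (3.11%) were higher in LNCaP and 91 (5.06%) lower, against 20.5% and 11% of all regions. With only peaks at a −log10 q of at least 5 the balance turned, with 47 higher and 26 lower. It also turned without LNCaP replicate 5, with 79 higher and 56 lower. Over all regions, 26751 were higher and 14311 lower in the main fit. These were 22749 and 6754 at that q, and 26398 and 12167 without LNCaP replicate 5. The count of 91 was 59, 53 and 56 without LNCaP replicate 3, 4 or 5 at 0.03 nM. It was 58 without VCaP replicate 1, 154 without VCaP replicate 2 and 141 with the replicate block. Over all regions the lower calls in these settings numbered 11662, 11533, 12167, 11994, 16881 and 19671, in the same order. Of the 56, 35 were in no VCaP library at 0.03 nM, and of the 91, 72 were in no LNCaP library.

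The members with the largest separated differences at 0.03 nM partly repeat those at 0.06 nM. In favour of LNCaP they lay at ETV6, CNTRL, RPS6KA6, EIF3H and RASAL2. The ETV6 member, chr12:11763462-11764057 inside the gene of an ETS family repressor, ranked 64.4, 62.3 and 67.7 in LNCaP and 0, 0 and 6.4 in VCaP (difference 62.7 ± 6.98 points, adjusted p = 3.11e-06). By 0.06 nM it ranked 59.3, 41 and 71.5 in VCaP as well. The call at RPS6KA6, a ribosomal S6 kinase gene, ended when an overlap of at least 50% was asked for (difference 0). With the top 50000 entries the calls at CNTRL, RPS6KA6, EIF3H and RASAL2 were lost, at 19.94, 14.93, 14.51 and 17.06 points (adjusted p = 0.0668, 0.121, 0.103 and 0.0602). In favour of VCaP they lay at LLPH, ALDH2, FHOD3, ADAMTS3 and PRB2, with differences of −83 ± 11.3, −78.3 ± 9.45, −77.55 ± 9.03, −77 ± 9.07 and −71.7 ± 14.4 points. The ADAMTS3 member, 38.2 kb from a gene for a procollagen protease, ranked 0 in all 3 LNCaP libraries and 71.6, 81.7 and 77.8 in VCaP.

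Whether the step between the matched doses differed by line was tested as a difference of differences. The change at 0.06 nM against 0.03 nM was larger in LNCaP than in VCaP at 3 members and smaller at 15, where 0.0299% and 0.0944% of all regions passed the test in those directions. By unadjusted p under 0.05, in either direction, the test had 263 of the 1798 members and 5.13% of all regions. With the replicate block the counts were 2 and 7, and those over all regions were 20 and 47, against 39 and 123 in the main fit. The count of 15 was 9 and 9 without LNCaP 0.03 nM replicates 3 and 4, beside 140 and 119 lower calls over all regions. It was 6 and 7 without LNCaP 0.06 nM replicates 3 and 4, beside 47 and 51 over all regions. It was 32, 6 and 10 without VCaP 0.03 nM replicates 1, 2 and 4, beside 261, 45 and 64. Without VCaP 0.06 nM replicates 1, 2 and 4 it was 5, 43 and 4, beside 62, 271 and 70. It was also 0 when a peak in at least 9 of the 18 libraries was asked for, as was the count over all regions.

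The highest mean ranks at 10 nM, which chose the next members, belonged to regions at ELOC, SGIP1, FKBP5, ACTL7B, IFNAR2-IL10RB, GADD45G, CACNG4, ANKRD46, RGS2 and MYBL1. Their mean ranks at 10 nM ran from 95.3 at ELOC to 88.6 at MYBL1, and their low-dose values differed widely. The CACNG4 member, chr17:66968906-66969595 inside a gene for a subunit of neuronal ion channels, ranked 80.4, 80.2 and 79.7 in LNCaP at 0.03 nM and 39.2, 52.9 and 70.9 in VCaP at 0.01 nM. It rose by 11.2 ± 1.93 points in LNCaP at 0.1 nM against 0.03 nM (adjusted p = 0.0144). The GADD45G member, chr9:89621441-89622195 and 15.3 kb from a gene of growth arrest and DNA damage, had no low-dose peak in any library at 0.03 nM in LNCaP or at 0.01 and 0.03 nM in VCaP. At 0.1 nM in LNCaP it ranked 66.5, 65 and 62 (rise of 64.5 ± 10.7 points, adjusted p = 0.0128), and at 0.06 nM in VCaP 34.6, 0 and 51.1.

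ELOC, on chromosome 8, encodes elongin C, a subunit of ubiquitin ligases. Its member ranked 82.3, 80.2 and 74.4 in LNCaP at 0.1 nM against 40.7, 36.1 and 39.6 at 0.03 nM, and rose (40.15 ± 6.11 points, adjusted p = 0.00868). The ACTL7B member, chr9:108789371-108790421 and 64.6 kb from an actin-like gene of the testis, ranked 88.2, 85.4 and 86.8 at 0.1 nM against 23, 30.6 and 23.6 at 0.03 nM, with the smallest adjusted p of the 10 (0.000831). Members at IFNAR2-IL10RB, a read-through of cytokine receptor genes, at ANKRD46, at RGS2, a brake on G protein signalling, and at MYBL1, a MYB family transcription factor, rose in the same comparison by 66 ± 8.91, 25.2 ± 4.09, 58.6 ± 10 and 28.4 ± 4.62 points. At SGIP1, a gene of endocytosis, the difference of 48.6 ± 14 points did not pass (adjusted p = 0.13). At 0.06 nM the MYBL1 member was higher in LNCaP than in VCaP (23.3 ± 8.46 points, adjusted p = 0.0438) and the RGS2 member lower (−27.3 ± 9.15 points, adjusted p = 0.03). In VCaP, none of the 9 that were tested passed at 0.06 nM against 0.01 nM, where RGS2 ranked 79.9, 82.8 and 77.7 against 0 in each (80.1 ± 14.7 points, adjusted p = 0.0797).

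Of 49 genes known to be induced by androgen in prostate cells, 15 had a member within 100 kb (30.6%), beside 15.6% of 19974 protein-coding genes. The list was chosen with earlier results of these data known, and a nearby region is not shown to act on the gene. They include FKBP5, STEAP4, ACSL3, ELL2, ZBTB10, MPHOSPH9, PLPP1, EAF2, SORD, BMPR1B, IQGAP2, NCAPD3, UAP1 and CDK8. KLK3, KLK2 and TMPRSS2, well known genes of the list, had none. Long genes have more room for a member, and the share was not compared at matched length.

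FKBP5 encodes a co-chaperone of steroid receptor complexes. Its gene body held the third-ranked member, chr6:35722252-35722801, which no library listed at 0.03 nM in LNCaP or at 0.01 nM in VCaP. In LNCaP it ranked 64, 63.4 and 20.1 at 0.06 nM, 89.4, 91.5 and 70.6 at 0.1 nM, and 96.3, 95.6 and 96.5 at 10 nM. In VCaP it ranked 41.1, 0 and 70.3 at 0.03 nM, 76.6, 55.6 and 82.2 at 0.06 nM, and 86, 93.4 and 90.3 at 10 nM. The rise in LNCaP at 0.1 nM against 0.03 nM was 83.8 ± 11.5 points (adjusted p = 0.00513). It was lost when peaks were ranked by fold enrichment (adjusted p = 0.111) and without replicate 3 or 4 at 0.1 nM (adjusted p = 0.0533 and 0.0569). The same difference in VCaP at 0.06 nM against 0.01 nM was 71.5 ± 18.4 points and did not pass (adjusted p = 0.218).

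The other FKBP5 member described, chr6:35590284-35591467 in the same gene body, opened later in VCaP. In LNCaP it ranked 12.9, 21.4 and 20.8 at 0.06 nM, and 47.1, 36.5 and 49.1 at 0.1 nM against 0 in each at 0.03 nM (rise of 44.2 ± 9.36 points, adjusted p = 0.0337). No VCaP library listed it at 0.01, 0.03 or 0.06 nM, and at 10 nM it ranked 53.1, 50.8 and 46 there. At 0.06 nM it was higher in LNCaP than in VCaP by 18.4 ± 5 points (adjusted p = 0.00918). In that comparison it passed the filter only through LNCaP, the line where it is high.

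NCAPD3, a condensin subunit gene, showed the opposite order. Its member, chr11:134227913-134228726 and 2.65 kb from the gene, was listed by no LNCaP library at any low dose and ranked 76.7, 66.6 and 79.2 at 10 nM. In VCaP it ranked 6.4, 0 and 46.5 at 0.03 nM, 73.4, 31.1 and 88.6 at 0.06 nM, and 89.7, 88.3 and 93.2 at 10 nM. At 0.06 nM it was lower in LNCaP than in VCaP by −64.4 ± 12.3 points (adjusted p = 0.000721). It passed the filter only through VCaP, the line where it is high.

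EAF2 and ELL2, whose proteins work together in transcription elongation, had members listed in LNCaP at 0.1 nM (53.3, 66.6 and 36.8 at EAF2, and 35.9, 57.4 and 36.8 at ELL2) and in a single VCaP library at 0.06 nM. ACSL3, which activates long fatty acids, had a member that differed by 34.85 ± 12.4 points in LNCaP at 0.1 nM against 0.03 nM, without passing (adjusted p = 0.18). The STEAP4 member, in the gene of a metalloreductase, was listed in 1 LNCaP library at 0.06 nM and in 2 VCaP libraries. The IQGAP2 member stood apart: all 3 VCaP libraries listed it at 0.01 nM, at 42.5, 58.7 and 34.5, and at 0.06 nM they gave 42, 37 and 58.5. Members at ZBTB10, SORD, CDK8 and BMPR1B averaged 28.1 to 48.5 at 10 nM over both lines, and at none of these 4 did the low-dose contrast in LNCaP or VCaP pass where it was tested.

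**Figure D4:**
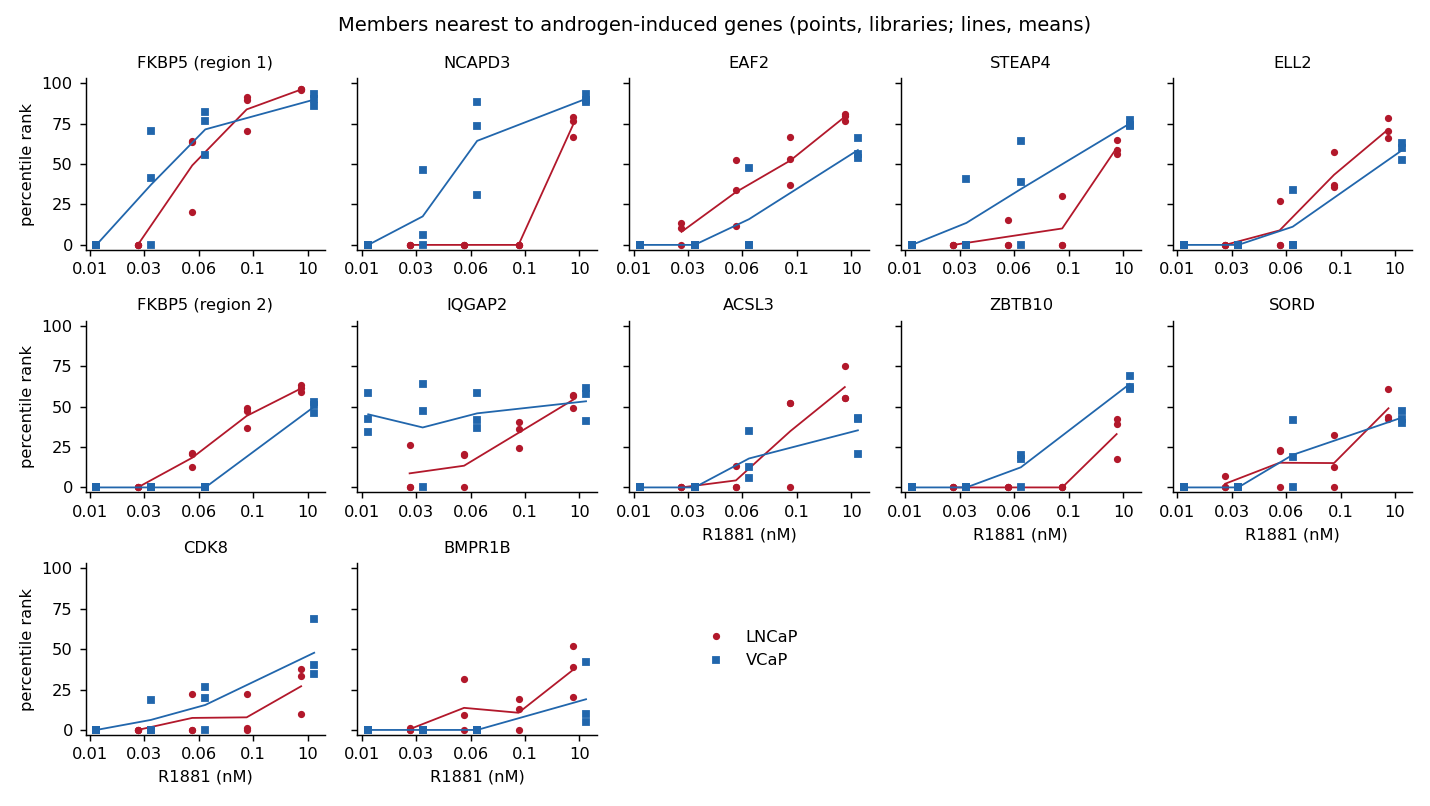
Percentile rank (y axis, 0 is not listed) of 12 members nearest to androgen-induced genes at each R1881 dose in nM (x axis, doses at equal steps, not to scale), with LNCaP as red circles and VCaP as blue squares. Points are libraries and lines join means; FKBP5 region 1 is listed from 0.06 nM in all 3 LNCaP libraries, and NCAPD3 in no LNCaP library below 10 nM.

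The other gene lists stood nearer to the 15.6% of all genes. A member within 100 kb was found for 3 of 16 androgen-repressed genes (18.8%), 3 of 20 luminal and pioneer factor genes (15%), 3 of 15 genes shared with glucocorticoids (20%), 4 of 22 cell cycle genes (18.2%) and 1 of 16 cell cycle inhibitors (6.25%). It was found for 2 of 18 lipid and sterol genes (11.1%), 2 of 10 polyamine genes (20%), 3 of 17 markers of basal, stromal, immune or neuroendocrine cells (17.6%) and 1 of 12 housekeeping genes (8.33%). Among repressed genes, the member in the N-cadherin gene CDH2 was in no LNCaP library at 0.06 nM and ranked 67.4, 58.6 and 77.2 in VCaP. The difference was −67.7 ± 10.2 points (adjusted p = 7.91e-05). The IGFBP3 member, 3.27 kb from a gene for an insulin-like growth factor carrier, ranked 48.8, 49.6 and 53.1 in LNCaP at 0.1 nM and 0, 0 and 51.9 in VCaP at 0.06 nM.

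Polyamine synthesis is strong in prostate epithelium, and 2 genes of its list had a member. The SMOX member, chr20:4170830-4171462 in the gene of spermine oxidase, was listed by no LNCaP library below 10 nM and ranked 68.1, 52.3 and 95.6 in VCaP at 0.06 nM (difference −72 ± 11.1 points, adjusted p = 0.0001). It passed the filter only through VCaP. The SRM member, 99.2 kb from the spermidine synthase gene, ranked 0 in each LNCaP library and 0, 0 and 25.9 in VCaP at that dose. Near cell cycle genes, the CDK2 and MCM7 members were lower in LNCaP than in VCaP at 0.06 nM, by −58.5 ± 12.1 and −49.9 ± 11.3 points (adjusted p = 0.0013 and 0.00269). The CDC25A member rose in LNCaP at 0.1 nM against 0.03 nM by 54 ± 10.7 points (adjusted p = 0.0264), and the CDK1 member was listed at scattered doses in both lines.

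Among transcription factor genes, the GATA3 member ranked 38.5, 41 and 32.8 in LNCaP at 0.1 nM against 0 in each at 0.03 nM, just short of a call (adjusted p = 0.0517). The FOXA2 member, 88.15 kb from that pioneer factor gene, ranked 31.9, 29.3 and 0 in LNCaP and 79.9, 56.8 and 74.8 in VCaP at 0.06 nM (−50.1 ± 15.2 points, adjusted p = 0.0181). PDK4, whose kinase restrains pyruvate oxidation, had a member 32.4 kb away that was lower in LNCaP at 0.06 nM by −31.35 ± 8.69 points (adjusted p = 0.0106). The COL1A2 member, at a collagen gene of stromal cells, was also lower in LNCaP there, by −68.65 ± 8.22 points (adjusted p = 7.21e-06), and the SDHA member, 80.1 kb from a housekeeping gene, by −40.6 ± 9.66 points (adjusted p = 0.00384). The PDK4 and COL1A2 members were in no low-dose LNCaP library, so both passed the filter only through VCaP.

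The members lay away from gene starts. Of the 1700 members outside chromosome 8, 21 (1.24%) were within 1 kb of a transcription start, against 37.9% of always-open spans and 14.2% of all spans of the list. Gains found in LNCaP alone had 1.49% and gains found in VCaP alone 1.35%. The median distance to a start was 37.2 kb for members, 8.68 kb for always-open spans and 25.5 kb for all spans. A gene body covered 50.3% of members, against 48.4% of always-open spans and 51.6% of all spans. A member spanned a median of 576 bp, from 207 to 1749 bp, against 897 bp for always-open spans and 645 bp for all spans. The annotation used here gives gene bodies and starts, so exons and introns were not told apart.

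**Figure D5:**
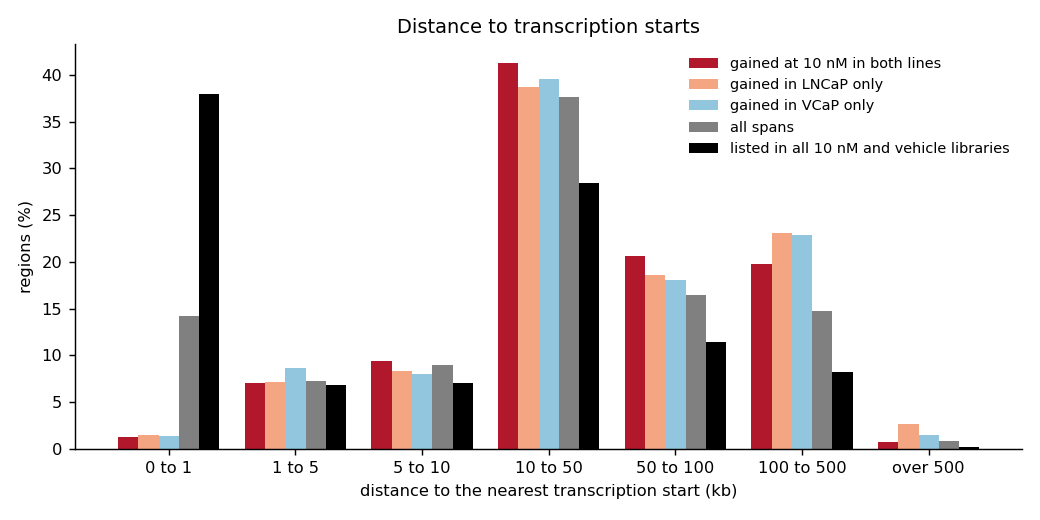
Percent of regions (y axis) by distance in kb to the nearest transcription start (x axis), for the members, gains in 1 line alone, all spans and always-open spans, outside chromosome 8. The members hold 1.24% in the nearest class and 41.2% between 10 and 50 kb, where always-open spans hold 37.9% and 28.5%.

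The members were scattered over the genome. The median gap between neighbouring members was 912 kb, and 46 of them had another member within 10 kb. They were nearest within 100 kb to 1285 protein-coding genes, 1149 of which had a single member, and 356 members had no such gene within 100 kb. The genes with the most members, chosen after their counts were seen, were GPC6, a heparan sulfate proteoglycan gene, with 5, and CARMIL1 and SLC9A9, a sodium-proton exchanger gene, with 4 each.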

How the data were processed

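The deposited files hold 1 MACS2 peak list per library, and replicates were not pooled. Per the submitters' processing notes, MACS2 was version 2.2.7.1 and the build GRCh38 (hg38). The same notes list BWA 0.7.17 and Trimmomatic 0.39. They also list deepTools 3.5.1. The deposited lists give each summit's −log10 p and −log10 q within its library. The deposited score is 10 times the −log10 p, cut to a whole number in nearly all entries. They also give a deposited fold enrichment, the ratio of the summit pileup to the local background. No list goes below a −log10 p of 2.

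The 89687 spans and 219925 merged spans of the other lists that touch none of them made 309612 regions. Entries of a library's top 100000 were ranked by −log10 p on a scale of 0 to 100, and a region took the highest rank among those overlapping it by at least 1 bp. Rank shows a peak's place in its library, not its absolute signal, and 0 may hide signal under the list's end. Group means were fitted with limma 3.58.1 (R 4.3.3), using a variance trend and robust moderation, on the 9 low-dose libraries of a line or all 18, over regions with a peak in at least 3. Calls are two-sided at an adjusted p under 0.05, and differences are given with SE. Checks on simulated data preceded the fits.

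Same-numbered libraries of different doses deviated together, with r of 0.172 to 0.556 in LNCaP and 0.13 to 0.306 in VCaP, against −0.36 to 0.173 and −0.283 to 0.074 for different numbers. The numbers were therefore taken to pair the libraries, but the main fits did not use the pairing. Counts, SE and adjusted p are from unpaired group means unless the replicate block is named, and the block was run as an alternative.

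Depth was recovered by solving fold enrichment and −log10 p for whole-number pileups, with 100% of solved summits within 0.05 of a whole number; percentile 1 of the solved backgrounds is the background pileup. Genes are the nearest RefSeq protein-coding gene bodies within 100 kb. Named members were the 10 with the highest mean rank at 10 nM, up to 12 nearest to androgen-induced genes and 4 for each other list, and the 5 largest calls each way per contrast with groups that do not overlap (no overlap rule for the difference of differences). The members and lists were chosen with earlier results of these data known. No genome sequence was used, so the planned response elements at summits and sequences of named members were replaced by promoter windows. Alternatives changed list length, thresholds, ranking, overlap, filters, the libraries fitted and pairing. Some genes of the lists are not reported here.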

Additional observations from a re-analysis of the deposited data

Results flagged for a closer look

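The step from 0.03 to 0.06 nM differed between the lines at 3 members in favour of LNCaP and at 15 in favour of VCaP, by limma on all 18 low-dose libraries. Values are the change in LNCaP minus the change in VCaP, in percentile points with SE. At SEM1, a proteasome subunit gene 37.65 kb away, the difference was 51.58 ± 7.12 (adjusted p = 0.0109): LNCaP ranked 53.2, 51.3 and 50.2 at 0.06 nM and 0 in each at 0.03 nM, and no VCaP library listed it at either dose. At RGS6 it was 51.10 ± 7.44 (adjusted p = 0.0121), with ranks of 59, 46.2 and 48.2 in LNCaP at 0.06 nM and 0 in every other library of the 4 groups. The SEM1 and RGS6 members were in no low-dose VCaP library, so both passed the filter only through LNCaP.

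In the other direction, ABCG1, a sterol exporter gene, had a difference of −67.26 ± 7.44 (adjusted p = 0.00205). Its member ranked 0 in LNCaP at every low dose, and in VCaP it ranked 72.7, 56.3 and 72.8 at 0.06 nM against 0 in each library at 0.03 nM. With a peak in 3 of the 18 low-dose libraries, all VCaP at 0.06 nM, it passed the filter only through the group where it is high. HPS3, a gene of lysosome-related organelles, had −55.56 ± 7.50 (adjusted p = 0.0102), and RHOT1, a mitochondrial GTPase gene, −55.73 ± 9.22 (adjusted p = 0.0262). KCNN3, a potassium channel gene, had −59.49 ± 10.35 (adjusted p = 0.0349), and PKHD1, the fibrocystin gene, −57.94 ± 10.2 (adjusted p = 0.037). Many of these calls depend on the setting. KCNN3 and PKHD1 were each called in 7 of 23 alternatives, RHOT1 in 11 of 22 and HPS3 in 18 of 22. SEM1 was called in 21 of 23, RGS6 in 20 of 23 and ABCG1 in 17 of 19. An alternative is counted only where the member was tested, so the totals differ. The 19 of ABCG1 leave out each alternative that removed a VCaP library at 0.06 nM, where it no longer passed the filter. These counts therefore do not compare stability between members. The call was lost with the replicate block at KCNN3, PKHD1 and RHOT1, and at each of the 7 when only the 4 groups compared were fitted. With the top 50000 entries SEM1, RGS6 and ABCG1 were not called, at 3.15, 5.97 and −34.52 points.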

How the results depend on the processing

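Under the alternatives run, 157 values of the main results stayed within the limits set for a match and 81 moved. Of the values of single named members, 528 kept their call, 69 lost it and 0 changed direction. An alternative in which a named member was not tested gives no such value. The balance of member calls between the lines at 0.03 nM turned in 2 of the alternatives. There were 47 members higher and 26 lower at a −log10 q of at least 5, and 79 higher and 56 lower without LNCaP replicate 5. Over all regions, higher calls exceeded lower calls in the main fit and in both of these settings. Counts of calls below are of members alone, and those over all regions also changed between settings. With the replicate block, for example, 4949 regions rose in LNCaP by dose, against 1655 in the main fit. The causes were not tested.

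The 1798 members became 3159 with lists not shortened, 404 with the top 50000 entries and 877 at a −log10 q of at least 5, and 1882 to 2422 when a library was left out. With all deposited entries, calls numbered 17 in VCaP by dose, 89 higher and 138 lower in LNCaP at 0.03 nM, and 7 higher for the step; 1064 LNCaP members were separated, and the LNCaP shares were 25.97%, 60.72% and 79.85%. With the top 50000, calls numbered 88 in LNCaP and 1 in VCaP by dose, 64 higher and 156 lower at 0.06 nM, and 7 higher and 19 lower at 0.03 nM. Separated members numbered 220 in LNCaP and 158 in VCaP, and the shares were 2.929%, 11.7% and 20.5% in LNCaP and 1.724%, 5.692% and 20.88% in VCaP. At a −log10 q of at least 5, calls numbered 2 in VCaP by dose, 236 lower at 0.06 nM, 26 lower at 0.03 nM and 6 higher for the step; 220 VCaP members were separated, and shares were 11.74% in LNCaP at 0.03 nM and 4.097%, 12.18% and 39.82% in VCaP. With an overlap of at least 50%, calls numbered 26 higher and 49 lower at 0.03 nM and 9 higher for the step, 299 VCaP members were separated, and the LNCaP share at 0.03 nM was 10.38%.

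A peak in at least 1 library gave 145 calls in LNCaP and 11 in VCaP by dose, and 5 lower for the step; a peak in at least 50% of libraries gave 130 lower at 0.06 nM, and 0 higher and 0 lower for the step. Fitting only the groups compared gave 121 in LNCaP by dose, 57 lower at 0.03 nM, and 0 higher and 1 lower for the step. With vehicle and 10 nM libraries in the fit there were 383 in LNCaP and 1 in VCaP by dose, and 5 higher and 24 lower for the step. The replicate block gave 460 in LNCaP by dose, 141 lower at 0.03 nM and 7 lower for the step, and moved no other count by over 1.5 times. Without the VCaP libraries numbered 2, an alternative chosen after seeing the data, there were 19 in VCaP by dose, 198 lower at 0.03 nM and 28 lower for the step.

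Leaving out single libraries gave 18 to 184 calls in LNCaP and 0 to 3 in VCaP by dose; 91 to 165 higher and 284 to 457 lower at 0.06 nM; 42 to 79 higher and 53 to 154 lower at 0.03 nM; and 2 to 4 higher and 4 to 43 lower for the step. Separated members numbered 694 to 945 in LNCaP and 514 to 918 in VCaP. Fewer libraries make separation easier for any region. For separated members under any alternative, the share over all regions was not computed. Shares were 14.46% to 18.99%, 38.49% to 45.77% and 58.01% to 65.46% in LNCaP, and 9.9% to 15.77%, 19.88% to 33.95% and 52% to 66.82% in VCaP. The share of members with a response element was not run. Depth and list length limit what a rank of 0 can show.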
